A study of Mus musculus with 10 samples.

Results

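The keratins of the hair follicle are a branch of the keratin family that is made in the hair shaft and in the sheath that moulds it, and not in the basal layer of the epidermis. Described here are 10 of these genes and the p63 peaks around them. The genes were chosen by name, and their peaks are those of a deposited list whose midpoint lies inside a member gene or within 50 kb of either end. The 10 genes stand among 49603 annotated genes, and 13 of the 8451 peaks met the rule. The members fall into 3 blocks. Krt31, Krt32, Krt34 and Krt35 are type I keratins of the hair cortex and cuticle on chromosome 11. Krt25, Krt27 and Krt28 are type I keratins of the inner root sheath on the same chromosome. Krt71, Krt72 and Krt73 are type II keratins of the inner root sheath on chromosome 15.

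The study asked how the binding landscape of p63 differs between mouse and human epidermis. Chromatin from 2 similar mouse keratinocyte lines, MK1 and MK2, was precipitated with the p63 antibody 4A4, 1 library per line, and sequenced (ChIP-seq). Histone mark and input libraries of the same lines were not used here. The p63 peaks come as 1 list made from both lines, with positions and no height, so neither the depth behind a peak nor how far the lines differed can be stated. The labels used here name no age, sex or treatment for the lines, and RNA was not analysed here, so whether the cultures made any hair keratin was not tested. All counts below are descriptions of that list, with no test. They hold for peaks that both libraries shared.

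Keratins build the intermediate filaments of epithelial cells as pairs of 1 type I and 1 type II protein. Their genes lie in a type I and a type II cluster, where hair, epidermal and simple epithelial keratins are neighbours, so a peak close to a hair keratin can be closer still to an epidermal one. p63 is the transcription factor that maintains the basal cells of stratified epithelia, whose own keratins are Krt5 and Krt14. Hair keratins are switched on later, in the matrix and sheaths of the growing follicle, under factors such as LEF1, HOXC13 and FOXN1.

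The start regions of the members come first, because the peak list can be read against them. RefSeq promoter windows (GRCm38.p6, the assembly of mm10), from 250 bases before to 50 after the start site, were found for 9 of the 10 genes, the exception being Krt35. No p63 peak touched any of these 9 windows. Among all 27025 genes with such a window, 327 (1.21%) were touched by a peak, so 0 of 9 is close to that background. The windows of 5 members follow on their minus strand, as examples from the cortex and cuticle block (Krt31, Krt32 and Krt34) and the type II block (Krt71 and Krt72). Capitals mark 3 words: TATAAA on the gene's own strand, CTTTGAA and TTTATGG. The second resembles the site of LEF1, and the third that of HOXC13. No marked words overlap.
Krt34, chr11:100041505-100041804: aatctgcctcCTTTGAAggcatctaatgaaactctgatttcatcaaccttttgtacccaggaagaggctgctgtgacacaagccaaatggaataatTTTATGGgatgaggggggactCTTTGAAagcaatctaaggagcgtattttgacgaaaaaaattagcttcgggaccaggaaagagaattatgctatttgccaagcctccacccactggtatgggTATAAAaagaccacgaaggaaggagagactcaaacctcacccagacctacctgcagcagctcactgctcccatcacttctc
Krt31, chr11:100050502-100050801: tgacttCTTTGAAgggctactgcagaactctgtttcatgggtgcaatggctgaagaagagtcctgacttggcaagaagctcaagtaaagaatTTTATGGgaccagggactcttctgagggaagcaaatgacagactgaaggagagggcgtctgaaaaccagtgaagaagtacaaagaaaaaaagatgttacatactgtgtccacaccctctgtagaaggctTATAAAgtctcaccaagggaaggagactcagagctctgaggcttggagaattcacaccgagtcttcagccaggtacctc
Krt32, chr11:100088220-100088519: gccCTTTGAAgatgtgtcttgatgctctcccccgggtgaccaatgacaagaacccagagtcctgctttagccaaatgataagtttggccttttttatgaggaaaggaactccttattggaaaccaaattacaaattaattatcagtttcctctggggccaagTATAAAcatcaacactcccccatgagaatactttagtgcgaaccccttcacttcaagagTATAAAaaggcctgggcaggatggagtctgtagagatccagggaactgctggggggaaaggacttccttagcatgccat
Krt71, chr15:101743048-101743347: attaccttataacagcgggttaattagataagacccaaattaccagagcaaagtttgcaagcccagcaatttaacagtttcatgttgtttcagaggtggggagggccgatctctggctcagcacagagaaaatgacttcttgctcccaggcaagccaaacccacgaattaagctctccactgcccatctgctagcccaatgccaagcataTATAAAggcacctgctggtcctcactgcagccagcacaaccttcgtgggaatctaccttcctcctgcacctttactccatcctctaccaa
Krt72, chr15:101786471-101786770: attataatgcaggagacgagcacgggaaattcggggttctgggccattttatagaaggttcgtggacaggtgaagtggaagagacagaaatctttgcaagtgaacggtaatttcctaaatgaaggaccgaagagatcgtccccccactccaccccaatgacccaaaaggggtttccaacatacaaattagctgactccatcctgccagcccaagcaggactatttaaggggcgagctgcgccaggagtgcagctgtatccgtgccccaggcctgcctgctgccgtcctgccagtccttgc

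The start regions shared a TATA box. TATAAA began between 45 and 15 bases before the start site in 8 of the 9 windows, against 739 of 32851 promoter windows of all genes (2.25%). The exception was Krt72, which held TATAAA in the reverse direction alone. Searched over the whole window, TATAAA occurred on the gene's own strand in 8 of 9 members and in 8.32% of all windows. On both strands it was 9 of 9 and 13.6%. The first T lay 29 bases before the start in Krt31 and Krt32, 30 in Krt25, Krt28 and Krt73 and 31 in Krt34. It lay 40 bases before the start in Krt71 and 15 in Krt27, and the position of Krt27 is the edge of the band. The count of 8 within the band thus depends on where that edge was set.

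The cortex and cuticle keratins also shared the CTTTGAA word. On either strand, it occurred in all 3 of their windows (Krt31, Krt32 and Krt34) and in that of Krt28, together 4 of 9, against 5.14% of all windows. In Krt31, Krt32 and Krt34 a copy began 244, 247 and 240 bases before the start, while that of Krt28 lay after its start. Krt31, Krt32 and Krt34 are neighbours and do not give 3 separate observations. The median GC content was 45.3% in the member windows and 52.7% in all windows. What this does to counts of words poor in G and C was not tested. TTTATGG, on either strand, occurred in Krt31 and Krt34 at 158 and 154 bases before the start, and in 2.75% of all windows. The p53 family, to which p63 belongs, binds pairs of the core CNNG. A pair with 6 bases between the cores was in 5 of the 9 windows and in 70.2% of all windows, on either strand. The core CATG by itself was in 6 of 9 and in 61.1%, and a pair in which at least 1 core is CATG was in 0 of 9 and in 11.5%. With only 9 windows, these counts of p53 family cores are close to their shares over all windows. These words were picked after some of the windows had been read. They are matches of letters, not measured sites.

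All 10 hair follicle keratins had a p63 peak within 50 kb, where 40.7% of the 21779 protein-coding genes had one in the body or at that distance. None of the 10 had a peak inside the gene, against 13.4% of protein-coding genes. With only 10 genes, 0 is close to that share. The members are also short, 3906 to 10349 bp, while the share covers genes of any length. Within 10 kb, 2 of 10 had a peak (Krt35 and Krt72), against 21.3% of protein-coding genes, so the share at close range was near the background. Within 25 kb, 8 of 10 had a peak, against 29.7%. Within 100 kb it was again 10 of 10, against 55.2%. The 10 genes are neighbours that share peaks, and they do not give 10 separate observations.

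**Figure D1:**
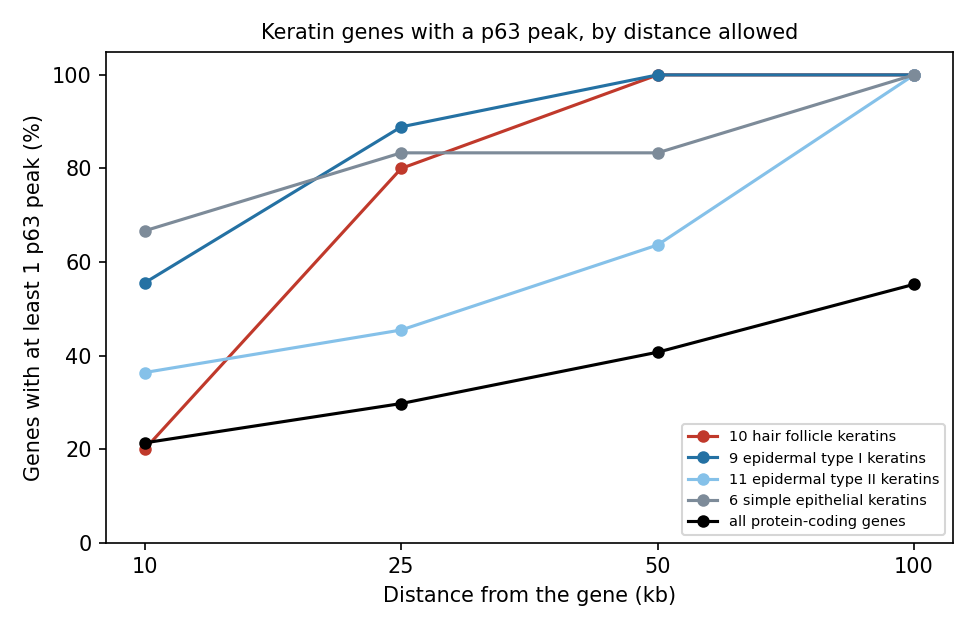
Percentage of genes (vertical axis) with at least 1 p63 peak midpoint in the gene or within the distance on the horizontal axis (10, 25, 50 and 100 kb, evenly spaced). Points are the 10 hair follicle keratins, 3 other keratin lists and all protein-coding genes; the hair follicle keratins were at 2 of 10 within 10 kb, beside 21.3% of all protein-coding genes, and at 10 of 10 within 50 kb, beside 40.7%.

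Most of these peaks had another gene as their nearest. Of the 13 peaks, 4 had a member as the nearest gene of any kind, 2 at Krt32 and 2 at Krt72. Another 2 had a hair keratin outside the 10, Krt33a and Krt36. For 6 peaks it was an epidermal keratin, Krt5 for 3 of them and Krt6a, Krt10 and Krt15 for 1 each. The remaining peak lay inside the long noncoding RNA gene Gm32385. So 2 of 10 members were the nearest gene of a peak, against 16.9% of protein-coding genes. Distances are those of the peak midpoint to the gene body, which is 0 inside a gene.

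**Figure D2:**
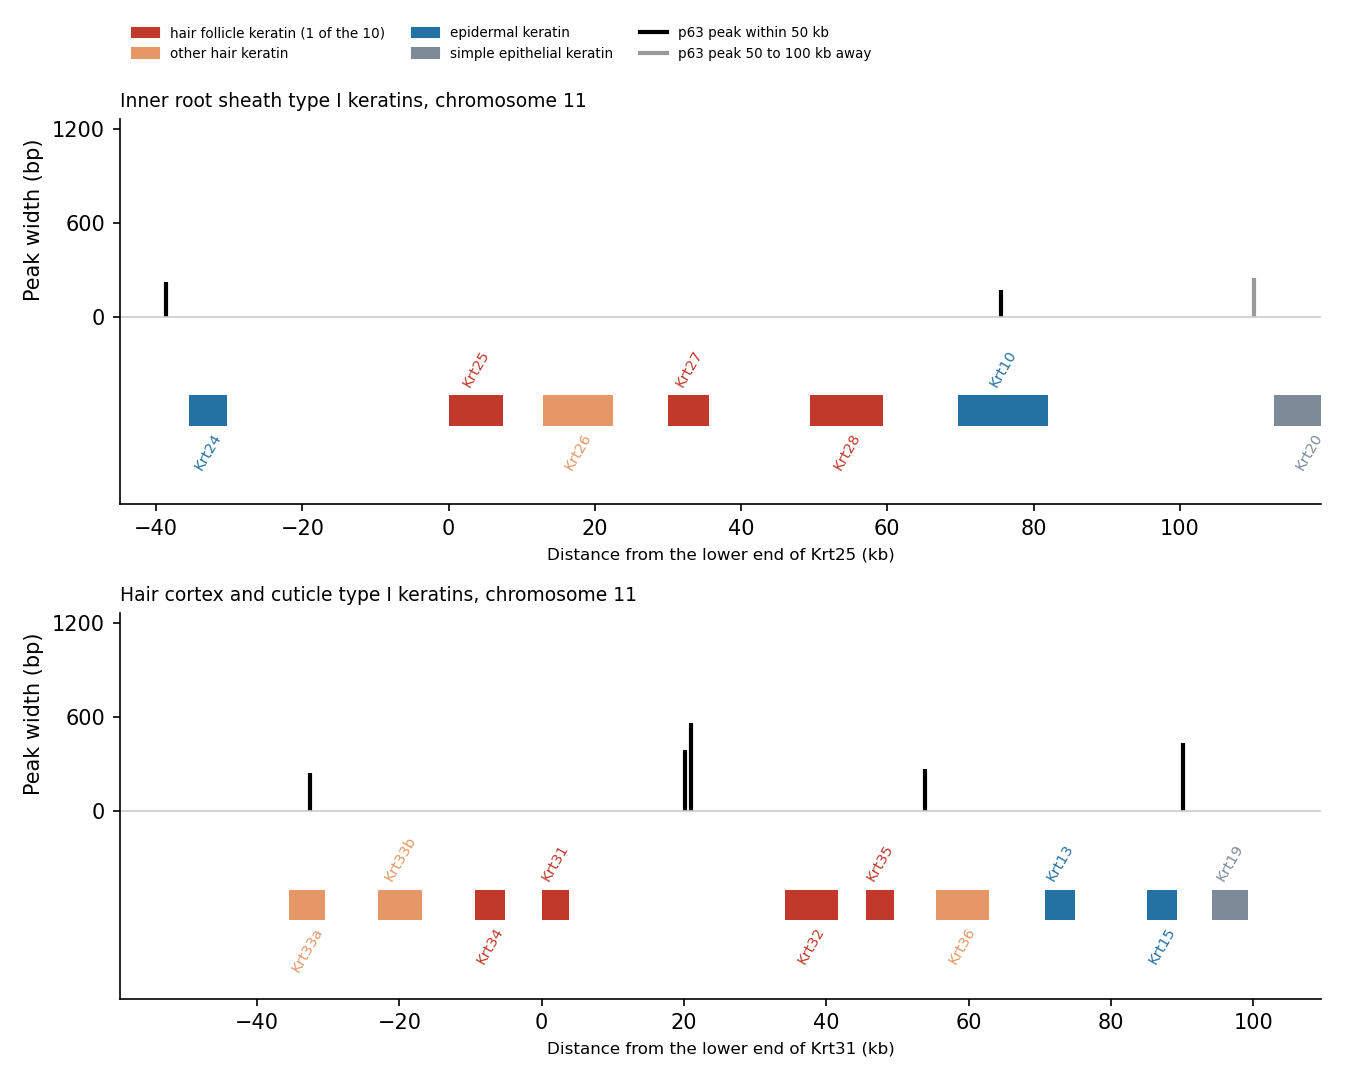
Maps of both type I blocks on chromosome 11; the horizontal axis is the distance in kb from the lower end of Krt25 (top) or Krt31 (bottom), boxes are keratin genes coloured by list, and the height of a vertical line is the width of the p63 peak in bp. In the top map the line nearest to the inner root sheath keratins stands in Krt10, 16.2 kb from Krt28, and in the bottom map a pair of lines stands between Krt31 and Krt32.

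Among the cortex and cuticle keratins, a pair of p63 peaks stood in the gap between Krt31 and Krt32. Both genes are transcribed from the minus strand, so the pair lay upstream of Krt31, a keratin of the cortex, and downstream of Krt32, a keratin of the cuticle. The first peak, chr11:100066593-100066980, was 388 bp wide. The second, chr11:100067330-100067887, was 558 bp wide and began after a gap of 349 bp. By gene body both were nearest to Krt32, at 14.1 and 13.2 kb. By start site both were nearest to Krt31, at 16.2 and 17.1 kb. Either way the nearest gene was a hair follicle keratin, and each peak of the pair lay within 50 kb of all 4 members of the block.

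Krt35, a keratin of the cuticle and early cortex, had the closest peak of this block. That peak, chr11:100100371-100100637, was 267 bp wide and 4.28 kb above the upper end of Krt35. It was closer to Krt36, a hair-type keratin also made in the nail and tongue, whose lower end was 1.51 kb away. For Krt32 the same peak was the nearest, at 12.2 kb, closer than the pair on its other side. For Krt31 it lay 49.95 kb away, just inside the rule, and without it Krt31 would have 3 peaks in place of 4.

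Krt34, which like Krt31 is a keratin of the cortex, had its nearest peak 23.3 kb away. This peak, chr11:100013928-100014170, was 243 bp wide and lay inside Krt33a, another keratin of the cortex. In all, Krt31, Krt32 and Krt35 had 4 peaks each within 50 kb, and Krt34 had 3. Having 3 or more was so for 5 of the 10 members, these 4 and Krt71, and for 9.70% of protein-coding genes. The fifth peak of the block, chr11:100136554-100136988, belonged by distance to Krt15, a keratin of basal cells and of the follicle bulge, which it neared at 0.822 kb. It was 40.5 kb from Krt35 and 48.5 kb from Krt32. From Krt33a to Krt36, the 98.3 kb of hair keratins held 4 peaks, which is 40.7 per Mb. Both of these end genes lie outside the 10 and were each the nearest gene of a peak, so this density depends on where the ends were set. From Krt34 to Krt35, the 58.9 kb of the members held 2 peaks, the pair, which is 34.0 per Mb. The whole type I cluster from Krt24 to Krt17 held 13.3 per Mb, and chromosome 11 as a whole 5.44 per Mb.

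The type I keratins of the inner root sheath, which stiffen the sheath around the growing hair, lay in a stretch with no peak. Between Krt25 and Krt28 there were 59.4 kb and 0 peaks. The stretch without a peak ran for 114.0 kb and held Krt24, Krt25, Krt26, Krt27 and Krt28. Such a length is not rare, since 35.0% of the 645 gaps between peaks on chromosome 11 were at least as long and the median gap was 61.6 kb. Each of the 3 members had 1 peak within 50 kb, the lowest count among the 10.

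The peaks at the borders of this stretch were narrow and had other genes as their nearest. On the side of Krt25, the peak chr11:99276806-99277026 was 221 bp wide and 38.6 kb downstream of Krt25. It lay inside Gm32385, and its nearest protein-coding gene was Krt24, at 3.04 kb. On the side of Krt28, the peak chr11:99391008-99391178 was 171 bp wide, the narrowest of the 13. It lay inside the annotated extent of Krt10, the type I keratin of suprabasal epidermis, 1.73 kb from a Krt10 start site. It was 16.2 kb upstream of Krt28 and 40.0 kb upstream of Krt27. A further peak on that side, chr11:99425519-99425766, fell just outside the rule at 50.7 kb from Krt28.

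**Figure D3:**
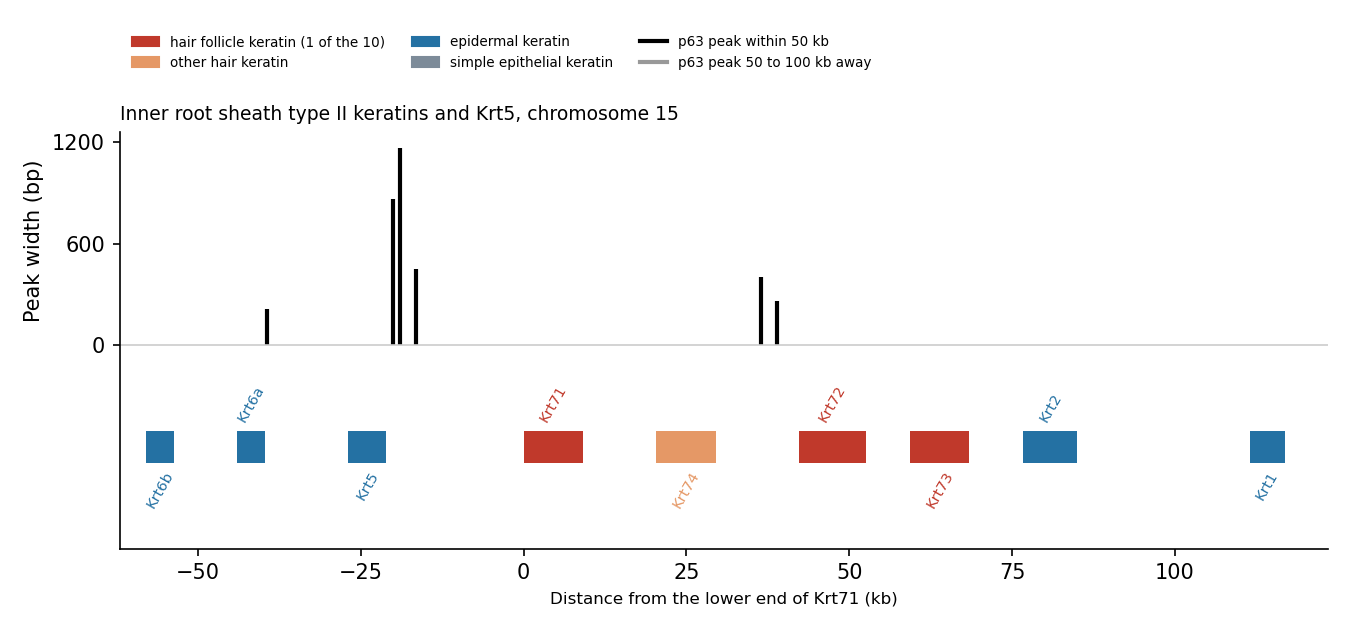
Map of the type II block on chromosome 15; the horizontal axis is the distance in kb from the lower end of Krt71, boxes are keratin genes coloured by list, and the height of a vertical line is the width of the p63 peak in bp. The 3 widest lines stand beside Krt5, and a separate pair of 407 and 261 bp stands below Krt72.

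The type II keratins of the inner root sheath adjoin Krt5, the keratin of basal cells, and their peaks fell into 2 groups. The first group held 4 peaks that were all nearest to an epidermal keratin. One of 218 bp lay 0.203 kb from Krt6a, a keratin of wounded epidermis and of the follicle's companion layer. Those of 863, 1166 and 451 bp lay 0.999, 2.14 and 4.56 kb upstream of Krt5. Krt71, a type II keratin made throughout the inner root sheath, counted all 4, at 39.4, 20.045, 18.9 and 16.5 kb, and all 4 were downstream of it. Of the 6 peaks within 50 kb of Krt71, which was the highest count among the members, 4 were thus nearer to Krt5 or Krt6a.

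The second group was a pair of peaks between the pseudogene Krt74 and Krt72. They were chr15:101770237-101770643, of 407 bp, and chr15:101772650-101772910, of 261 bp, with 2.01 kb between them. Both had Krt72, a keratin of the sheath cuticle, as the nearest gene, at 5.73 and 3.39 kb from its downstream end. From Krt71 they were 27.3 and 29.7 kb upstream. From Krt73, another keratin of the sheath cuticle, they were 22.9 and 20.5 kb downstream. Krt72 and Krt73 had these 2 peaks and no other within 50 kb. Above them no peak was found for 207.7 kb. That stretch held Krt72, Krt73 and 6 keratins of the list named epidermal type II here, Krt2, Krt1, Krt77, Krt76, Krt4 and Krt79. On chromosome 15, 24.4% of the 414 gaps between peaks were at least as long.

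The peaks with a member as the nearest gene came as 2 pairs, between Krt31 and Krt32 and between Krt74 and Krt72. The first pair was 13.2 and 14.1 kb from Krt32, with 0.349 kb between its peaks, and the second 3.39 and 5.73 kb from Krt72, with 2.01 kb between them. The widths of these 4 peaks ran from 261 to 558 bp, with a median of 397.5 bp. The 6 peaks nearest to epidermal keratins had widths of 171 to 1166 bp, with a median of 443.0 bp. The median over all 8451 peaks was 305.0 bp, and 7 of the 13 peaks were at least that wide. The ranges overlapped. With no height in the list, width is the only measure of a peak that can be given.

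**Figure D4:**
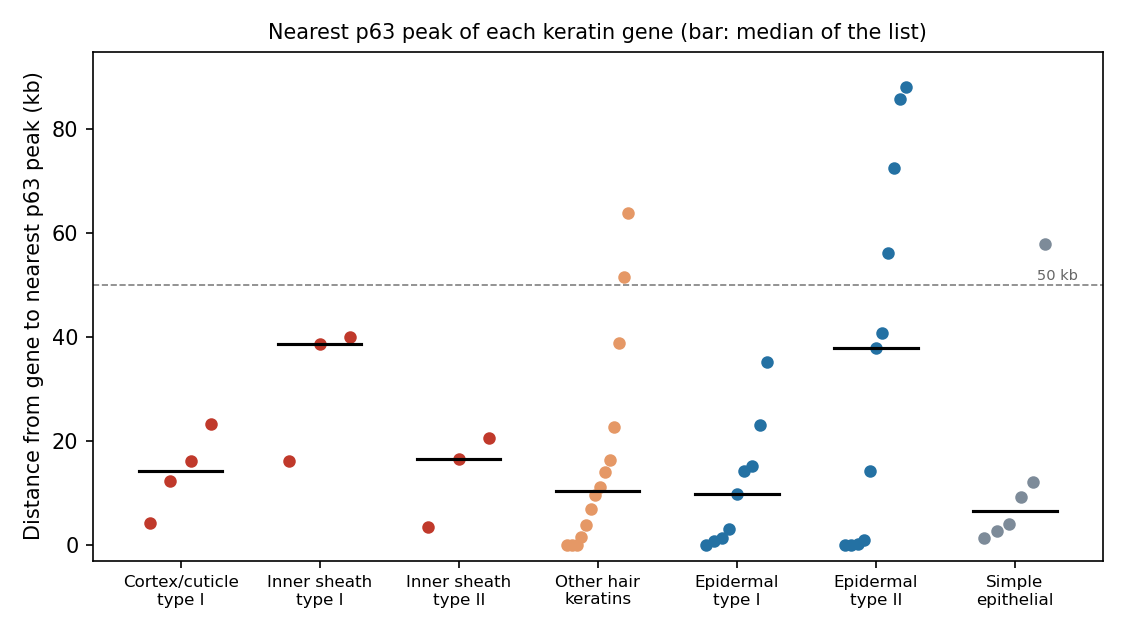
Distance in kb from each keratin gene to the midpoint of its nearest p63 peak (vertical axis), by list (horizontal axis); each point is a gene, the bar is the median of the list, and the dashed line is at 50 kb. The 10 hair follicle keratins, in the 3 lists on the left, sit between 3.39 and 40.0 kb, and points at 0 occur in 3 of the lists to the right.

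Set beside the other keratins, the 10 members had a median distance of 16.4 kb to the nearest peak, with a range of 3.39 to 40.0 kb. The epidermal lists are labels set without expression data, and not every keratin on them need be mainly epidermal. The 9 keratins listed as epidermal type I had a median of 9.84 kb and a range of 0 to 35.2 kb. The 11 keratins listed as epidermal type II had a median of 37.9 kb and a range of 0 to 88.1 kb. The 6 simple epithelial keratins had a median of 6.62 kb, and all protein-coding genes 79.0 kb. The ranges overlapped throughout and the lists share peaks, so no difference between the keratin lists is claimed. As nearest genes, the 10 members took 4 peaks, the 9 epidermal type I keratins 3, the 11 epidermal type II keratins 8 and the 6 simple epithelial keratins 1. Within 50 kb of the epidermal lists, the highest counts were 6 peaks each at Krt17 and Krt16, 5 at Krt42 and 4 each at Krt5, Krt6a and Krt6b. Krt17, Krt16 and Krt42 were not the nearest gene of any peak. Their nearest peak, at 23.1, 35.2 and 14.2 kb, was closest to Gm14206. Krt15, Krt13, Krt78 and Krt80 had 3 each, and Krt14 had 2, the nearest at 1.26 kb. Of the simple epithelial keratins, Krt8, Krt18, Krt19 and Krt20 had 3 each and Krt23 had 2.

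The other hair keratins in the annotation, 14 of the 15 listed, differed among themselves. Of these 14, 12 had a peak within 50 kb and 3 had one inside the gene, against 40.7% and 13.4% of protein-coding genes. Krt82, a type II keratin of the hair cuticle, had 4 peaks within 50 kb and 1 of 326 bp inside. Krt84, a hair-type keratin of the tongue, had 4, the nearest at 3.87 kb. Krt39 had 3, with 1 of 396 bp inside. Krt36 had 4 and the pseudogene Krt74 had 5. These genes lie in the same clusters as the members, and 5 of the 14 were the nearest gene of a peak, against 16.9% of protein-coding genes.

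Genes that control or work with hair keratins elsewhere in the genome had p63 peaks more unevenly. Of 24 regulators of the hair shaft and root sheath, 16 had a peak in the body or within 50 kb, against 40.7% of protein-coding genes. Runx1, a transcription factor of follicle stem cells, and Cux1, a homeobox factor of the inner root sheath, had 6 each in or beside gene bodies of 224609 and 319456 bp. Dlx3, a homeobox factor of the hair matrix, and Bmpr1a, a BMP receptor needed for hair shaft differentiation, had 5 each, and the ligand gene Wnt10a had 4. Not all of these peaks had the regulator as their nearest gene. Runx1 was the nearest gene of 6 peaks, Cux1 of 5, Wnt10a of 3 and Bmpr1a of 1. Dlx3 was that of none, and its nearest peak, at 9.21 kb, was closest to Gm38659. The 8 genes with no peak within 50 kb were Gata3, Lef1, Msx1, Msx2, Trps1, Sox21, Lhx2 and Sox9. Lef1, whose factor is a direct activator of hair keratin promoters, had its nearest peak 349.3 kb away.

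Of the hair keratin activators, Foxn1 and Hoxc13 had p63 peaks at the gene itself; both were picked out after their values were seen. Foxn1, the gene whose loss makes the nude mouse, had 3 peaks. One of 673 bp, chr11:78386563-78387235, covered 296 of the 300 bases of its promoter window, which is printed because it is the counterpart of the uncovered keratin windows above. Capitals mark the bases under the peak, on the minus strand.
Foxn1, chr11:78386559-78386858: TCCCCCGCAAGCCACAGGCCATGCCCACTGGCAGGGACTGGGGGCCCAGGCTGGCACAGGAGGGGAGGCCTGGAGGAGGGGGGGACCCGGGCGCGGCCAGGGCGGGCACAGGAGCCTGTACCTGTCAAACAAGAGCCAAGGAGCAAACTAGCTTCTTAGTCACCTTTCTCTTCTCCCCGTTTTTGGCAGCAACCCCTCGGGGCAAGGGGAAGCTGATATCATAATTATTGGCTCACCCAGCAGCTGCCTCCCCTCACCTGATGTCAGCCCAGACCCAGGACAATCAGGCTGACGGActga
Hoxc13 had 1 peak of 415 bp, chr15:102921837-102922251, inside the gene. Foxn1 was the only one of 15 regulators with a promoter window to have it touched by a peak, against 1.21% of all genes with such a window. A peak at a gene does not show that p63 regulates it.

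Of 16 structural partners of the hair shaft and sheath, 10 had a peak in the body or within 50 kb, against 40.7% of protein-coding genes. S100a3, which encodes a calcium-binding protein of the hair cuticle, had 6 by an annotated extent of 42351 bp. Dsg4, which encodes the desmoglein of the hair shaft, had 5, all at least 39.1 kb away, and the nearest of them was closest to Dsg3. Dsc2 had 3, and Padi1 and Dsc1 had 2 each. Tchh, which encodes trichohyalin of the inner root sheath, and Tgm3, which encodes a transglutaminase that crosslinks it, had none within 50 kb. Of 10 partners with a promoter window, 3 had it touched by a peak, against 1.21% of all genes with such a window. These were S100a3, Padi3, which encodes a peptidylarginine deiminase that acts on trichohyalin, and Lpar6, which encodes a receptor of the inner root sheath. The peak covered all 300 bases of the window in S100a3, 115 in Padi3 and 70 in Lpar6. In S100a3 the window touched, chr3:90588313-90588612, was not that of its first listed start, at 90584659. The peak at Padi3 had Gm13032 as its nearest gene.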

How the data were processed

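Per the labels' protocols, ChIP libraries were read as 50 bp single ends, and per the labels the peaks are those that passed IDR (irreproducible discovery rate) on both p63 libraries. Bowtie 1.1.1, SAMtools 1.1 and the build mm10 stand in the submitters' processing notes; a peak caller is not given in the sources used here, nor is any threshold. The deposited list has 3 columns (chromosome, start, end) and no score, count or p-value; starts were made 1-based. Genes came from the RefSeq table of GRCm38.p6, without those whose end below 3 Mb marks a scaffold position (except on Y), which gave 49603 genes with 21779 protein-coding ones. Start sites and strand came from the RefSeq promoter table, and 90 of 91 list entries matched a gene (Krt85 did not). The members and gene lists were chosen with earlier results of these data known, and the named genes were the 10 members, the nearest gene of each of their peaks, Krt5, Krt14 and up to 5 genes of each other list with most peaks. Lef1, Tchh, Tgm3, Padi3, Lpar6, Foxn1, Hoxc13, the genes listed as without a peak and the Krtap genes were named after their values were seen. No genome was used here, so peaks outside promoter windows are given without sequence. Counting was checked with planted peaks. Python 3.11.15, pandas 2.3.3 and matplotlib 3.10.9 were used.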

Additional observations from a re-analysis of the deposited data

How the results depend on the processing

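The counts were redone with other distances, peak edges in place of midpoints, wide peaks alone, other definitions of the nearest gene, and, chosen after seeing the data, peaks within 10 kb joined into 1 site. Within 10 kb there were 3 peaks at 2 members, 2 nearest to a member and 0 nearest to an epidermal keratin, and with peaks at least as wide as the median there were 7 peaks. With joined peaks, 2 sites were nearest to a member. All other values of the 4 counts were within 1.5 times those reported: the peaks nearest to a member numbered 3 or 4, and those nearest to an epidermal keratin 4 to 7. Start sites were searched among genes with a promoter window. Krt6a, Krt15, Krt33a, Krt35 and Krt74 had no such window, so no peak could go to them by start site. The peak at Krt6a went to Gm49428 and the peak in Gm32385 to Krt24. The 6 peaks nearest to an epidermal keratin by start site were thus not the same 6. Whether the pair below Krt72 is nearer to the start of Krt74 could not be told. Counts of single members moved most within 10 kb, for 9 of 10. No paired analysis was possible because the result is 1 list made from both lines, and for the same reason neither library could be left out. Depth is unknown, so a missing peak can be a peak that was not detected.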

Other observations

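Keratin-associated proteins fill the matrix between keratin filaments in the hair shaft, and part of their genes lie inside the type I keratin cluster, between Krt40 and Krt33a. Of 56 genes of this family with a Krtap symbol, 14 had a p63 peak in the gene or within 50 kb, against 40.7% of protein-coding genes. On chromosome 11 it was 12 of 23, and on chromosome 16, which holds 24 of them away from any keratin cluster, it was 0 of 24, with a median distance to the nearest peak of 923.0 kb. The genes are neighbours, and the difference between chromosomes was not tested. Of the 56, 2 were the nearest gene of a peak, Krtap3-2 and Krtap29-1, against 16.9% of protein-coding genes.

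Krtap3-2 was the only one of 51 such genes with a promoter window to have it touched by a peak. That is 1.96%, close to the 1.21% of all genes with such a window. The peak, chr11:99556890-99557452, was 563 bp wide and covered 214 of the 300 bases. The window is printed to show where it ends relative to the start site; capitals mark the bases under the peak, on the minus strand.
Krtap3-2, chr11:99556804-99557103: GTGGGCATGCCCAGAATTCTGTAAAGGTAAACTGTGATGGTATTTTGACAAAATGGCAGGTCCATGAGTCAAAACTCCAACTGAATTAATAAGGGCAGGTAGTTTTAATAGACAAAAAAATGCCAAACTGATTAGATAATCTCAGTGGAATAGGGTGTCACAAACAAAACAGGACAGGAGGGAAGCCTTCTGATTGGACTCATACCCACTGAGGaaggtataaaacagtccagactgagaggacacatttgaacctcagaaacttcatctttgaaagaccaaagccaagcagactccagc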
